A study of Mus musculus with 31 samples.

Results

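Collagens and laminins are the chains from which cells build most of the fibres and sheets of the extracellular matrix. The 52 genes described here are those named Col, a number, a and a number, or Lama, Lamb or Lamc and a number. They were taken by symbol among 18194 genes measured in fetal mouse gonads, with earlier results of these data known. Each gene was read from a probe set annotated with 1 gene symbol, the one with the highest mean over all 31 arrays. The set holds 11 fibrillar collagen chains, 6 collagen IV chains, 10 laminin chains, 2 multiplexins (Col15a1 and Col18a1), the anchoring fibril collagen Col7a1, 5 collagen VI chains, 9 FACIT chains (fibril-associated collagens with interrupted triple helices), 3 short-chain collagens, 4 transmembrane collagens and Col26a1. Collagen IV, the laminins, the multiplexins and Col7a1 are called the 19 basement membrane chains below.

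A basement membrane is a thin sheet that separates epithelial, muscle and endothelial cells from connective tissue. Laminins, each made of an alpha, a beta and a gamma chain, assemble on the cell surface, and collagen IV forms a cross-linked network that stabilises the sheet. Fibrillar collagens form the banded fibres of connective tissue, and collagen VI forms beaded microfilaments close to cells. In the fetal testis Sertoli cells and peritubular cells deposit a basement membrane around each testis cord, while the somatic cells and germ cells of the fetal ovary are grouped in less sharply bounded cords.

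RNA of whole ovaries and testes was measured in wild-type embryos and in embryos homozygous for Wv (Wv/Wv), a point mutation of the receptor gene Kit that impairs germ cell development. The gonads came from embryos 12, 14 or 16 days after mating (dpc), which gives 12 groups that share no further treatment or allele in the labels. In that order of ages the arrays numbered 2, 3 and 3 for ovaries in either genotype, 1, 3 and 3 for wild-type testes, and 3, 2 and 3 for Wv/Wv testes. The labels call arrays of a group biological replicates but do not say whether each is an embryo or a pool, and the strain is not given in the sources used here. P-values therefore measure the spread between these samples.

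Values are log2 signals, so a difference of 1 is a 2-fold difference in signal, and levels are compared only within a gene. The arrays were of 2 kinds, 21 with a wide spread of values (SD 2.33 to 2.39 over all probe sets) and 10 with a narrow spread (1.77 to 2.18). The kind of array is a term in the fit, and wild-type testis 16 dpc array 1, with the lowest SD, was left out of it. All 3 wild-type ovaries at 16 dpc were narrow, so comparisons with that group rest on this term. Each change is followed by its standard error, and a gene is said to differ where limma's p, adjusted over all genes by the Benjamini-Hochberg method, was below 0.05. In whole gonads, fewer cells of a type and less RNA per cell cannot be told apart. The labels of sex and genotype matched their markers. Some arrays stood apart from their group in cell markers. Wv/Wv ovary 14 dpc array 1 read 7.54 for Dazl and 6.46 for Ddx4, 2 germ cell markers. The other 2 arrays of its group read 4.51 and 4.43 for Dazl and 3.28 and 3.13 for Ddx4. Wv/Wv ovary 16 dpc array 1 had a mean log2 signal of 10.57 over 4 mesothelium markers, against 7.65 and 8.22 on the other 2 arrays of its group, and Msln (mesothelin) read 9.37 against 4.88 and 4.97. All 8 Sertoli cell markers were higher in wild-type testes at 14 dpc, and all 7 germ cell markers were lower in Wv/Wv ovaries at 12 and 14 dpc.

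**Figure D1:**
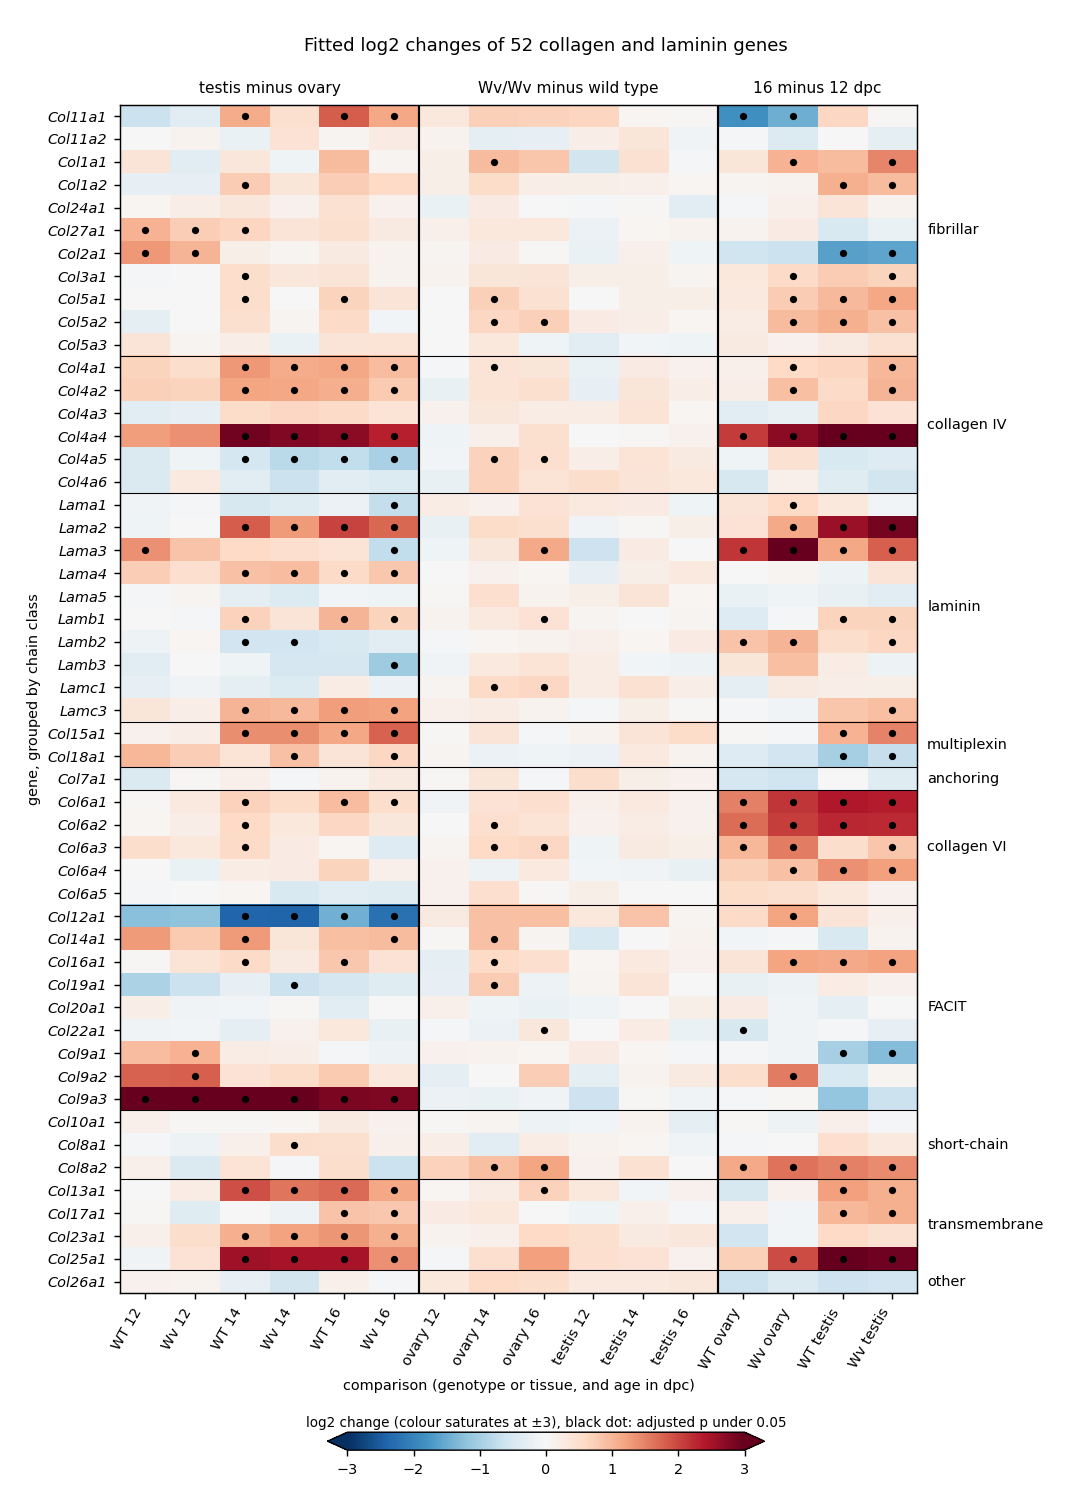
Fitted log2 changes of the 52 genes (rows, grouped by chain class) in 16 comparisons of 2 groups (columns). Red is higher and blue lower in the first-named group, and a black dot marks an adjusted p below 0.05. Dots are dense in the sex comparisons at 14 and 16 dpc and in the age comparisons, and absent from the genotype columns of testes and of ovaries at 12 dpc.

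Of the 52 genes, 37 had a group mean above 5.39, the 40th percentile of all values, in all 12 groups. Another 10 passed it in some groups only, among them Col4a4, Lama3, Lamc3 and Col4a3, and 5 in none (Col11a2, Col17a1, Col19a1, Col24a1 and Col6a5). Below that limit a log2 change may not measure the size of a difference. In the 16 comparisons of 2 groups, 41 members differed at least once, a count not set against its share over all genes. The 11 that never did include Col4a3, Col4a6, Lama5 (an alpha chain of many mature basement membranes) and Col7a1. The widest range of group means was that of Col4a4, 4.65, followed by Col9a3 with 4.11, Col25a1 with 3.78, Col12a1 with 3.33 and Lama3 with 3.22.

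At 12 dpc few members differed between the sexes, and Col9a3 had the largest difference in both genotypes. In wild-type gonads 4 of 52 were higher in the testis and 0 lower, where 0.929% of all genes were higher and 0.418% lower. In Wv/Wv gonads 5 were higher and 0 lower, against 1.4% and 0.835% of all genes. Without adjustment 13 members were higher and 2 lower at p below 0.05 in each genotype. Col9a3, Col2a1 and Col27a1 were higher in the testis in both genotypes. Col9a1 and Col9a2 were called in Wv/Wv only and Lama3 in wild type only, and those differences between genotypes were not tested.

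Col9a3 encodes a chain of collagen IX, a FACIT collagen that coats collagen II fibrils. It read 6.20 and 6.25 in wild-type ovaries at 12 dpc and 10.15 in the single wild-type testis, and 5.90 and 6.18 in Wv/Wv ovaries beside 10.75, 8.83 and 8.98 in Wv/Wv testes. Every testis lay far above every ovary. The log2 difference was 3.92 ± 0.51 (adjusted p = 0.00011) in wild type and 3.48 ± 0.38 (adjusted p = 6.6e-06) in Wv/Wv. Of its 2 other probe sets, read across the same arrays, one differed by 4.63 and 3.07 and the other by 0.03 and 0.37.

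Col2a1, the chain of the main cartilage fibril, read 6.26 and 5.82 in wild-type ovaries, 7.33 in the wild-type testis, 6.13 and 6.11 in Wv/Wv ovaries and 7.59, 7.23 and 6.61 in Wv/Wv testes. The groups did not overlap, and the differences were 1.29 ± 0.30 and 1.02 ± 0.22 in wild type and Wv/Wv. Both calls were lost without the class term on all 31 arrays and after quantile normalization, at differences of 0.89 to 1.29. Col27a1, a fibrillar collagen of cartilage, was higher by 1.05 ± 0.23 in wild type and 0.73 ± 0.17 in Wv/Wv, with 9.29 in the wild-type testis against 8.46 and 8.01 in ovaries.

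Among Wv/Wv gonads at 12 dpc the other 2 chains of collagen IX were also higher in the testis. Col9a2 read 8.31, 6.68 and 6.52 in testes and 5.53 and 5.22 in ovaries, a difference of 1.80 ± 0.35. Col9a1 read 6.96, 7.24 and 6.75 in testes and 6.06 and 5.82 in ovaries, a difference of 1.04 ± 0.20, and its other probe set differed by 3.65. Both calls were lost without Wv/Wv ovary array 2, at 1.64 for Col9a2 and 0.92 for Col9a1. The Wv/Wv testis array 1, which held the highest value of Col9a3 and Col9a2, also had the highest value of its group for Col4a1, Col4a4, Lama3 and Col15a1. Its Sertoli cell markers averaged 9.39 against 8.27 and 8.35 on the other 2 arrays, and its mesonephros markers 7.02 against 8.14 and 8.29. Without it 3 members were called in place of 5, without Wv/Wv ovary array 2 only 1, and without Wv/Wv testis array 3 there were 8. Of 6 cartilage markers, Hapln1 (a link protein of cartilage matrix) was higher in testes of both genotypes at 12 dpc, and the mean log2 signal of the list was 4.87 to 4.97 in wild-type ovaries, 5.29 in the testis, 4.84 to 5.04 in Wv/Wv ovaries and 4.98 to 5.51 in Wv/Wv testes. Its part in the result was not tested.

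At 14 and 16 dpc many more members were higher in the testis. At 14 dpc 22 were higher and 3 lower in wild type, where 7.76% of all genes were higher and 10.2% lower. At 16 dpc 17 were higher and 2 lower, against 7.98% and 8.11%. In that comparison all ovaries were narrow-spread and all fitted testes wide-spread. Sex and kind of array are fully joined there, and the counts rest on the class term. In Wv/Wv gonads 13 were higher and 4 lower at 14 dpc (9.6% and 5.14% of all genes) and 17 were higher and 5 lower at 16 dpc (10.4% and 10.1%). The median log2 change of the 52 was 0.42 and 0.51 in wild type and 0.26 and 0.26 in Wv/Wv, while the median of all genes was 0.05 or less. In all 4 comparisons 11 members were higher in the testis (Col4a1, Col4a2, Col4a4, Lama2, Lama4, Lamc3, Col15a1, Col9a3, Col13a1, Col23a1 and Col25a1) and 2 were lower (Col4a5 and Col12a1). These joint counts were not set against their share over all genes. Wild-type and Wv/Wv gonads share no arrays, but their comparisons come from the same fit and the same class term. Without the class term on all 31 arrays the members called, in both directions, were 11 and 10 in wild type and 9 and 9 in Wv/Wv.

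The collagen IV genes lie in 3 pairs, each transcribed in opposite directions from neighbouring starts. In the GRCm38.p6 annotation the starts of Col4a1 and Col4a2 on chromosome 8 span 22 bases. Col4a3 and Col4a4 overlap at their starts on chromosome 1, and 1274 bases separate Col4a5 and Col4a6 on chromosome X. Collagen IV protein is made as trimers of the first pair, of Col4a3, Col4a4 and Col4a5, or of Col4a5 and Col4a6. Across the 12 group means, where both genes of a pair come from the same arrays, Pearson's r was 0.986 for Col4a1 and Col4a2, 0.622 for Col4a3 and Col4a4 and 0.842 for Col4a5 and Col4a6. Read in the same way, it was 0.632 for Col1a1 and Col1a2, the chains of collagen I, and -0.454 for Lamb1 and Lamc1. The part of the kind of array in these values was not tested.

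Col4a1 and Col4a2, the chains of nearly every basement membrane, were higher in testes of both genotypes from 14 dpc. At 14 dpc Col4a1 read 12.96, 12.64 and 12.82 in wild-type testes against 11.55, 11.42 and 11.46 in ovaries, and 13.07 and 12.93 in Wv/Wv testes beside 11.98, 11.93 and 11.69 in ovaries. All testes lay above all ovaries. The differences were 1.30 ± 0.14 (adjusted p = 5.1e-07) and 1.12 ± 0.16 (adjusted p = 1.8e-05). At 16 dpc the fitted testes read 12.77 and 13.00 in wild type against 11.56, 11.63 and 11.65 in ovaries, and 12.85, 13.04 and 13.05 in Wv/Wv against 12.13, 11.96 and 12.07. These gave 1.16 ± 0.18 and 0.93 ± 0.14. The array left out read 11.43. With it, Col4a1 at 16 dpc in wild type was 0.79 without the class term and 0.56 with it, and neither value was called.

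Col4a2 followed its neighbour. It read 11.84, 11.70 and 11.40 in wild-type testes against 10.21, 10.47 and 10.49 in ovaries at 14 dpc, and 11.78 and 12.04 against 11.07, 10.78 and 10.31 in Wv/Wv. The differences were 1.18 ± 0.18 and 1.15 ± 0.20 at 14 dpc and 1.08 ± 0.23 and 0.78 ± 0.18 at 16 dpc. With wild-type testis array 1 the 16 dpc difference in wild type was 0.30 with the class term and was not called. On wide-spread arrays alone the Wv/Wv difference at 14 dpc was 0.71 and was not called.

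In the second pair Col4a4, a chain of the kidney filter and other specialised membranes, was called and Col4a3 was not. Col4a4 read 8.88, 9.26 and 9.19 in wild-type testes against 4.90, 6.39 and 6.23 in ovaries at 14 dpc, and 9.76 and 9.82 against 6.45, 5.46 and 5.89 at 16 dpc. In Wv/Wv it read 9.13 and 8.01 against 6.51, 4.79 and 5.53 at 14 dpc, and 9.03, 9.87 and 9.67 against 7.35, 6.44 and 7.80 at 16 dpc. No ovary reached the lowest testis. The differences ran from 2.32 ± 0.37 in Wv/Wv at 16 dpc to 2.89 ± 0.38 in wild type at 14 dpc. Of its 2 other probe sets one differed by 2.21 to 2.45 and the other by 0.29 to 0.76. Col4a3, the partner chain in the same trimer, read 5.09, 5.18 and 5.15 in wild-type testes at 14 dpc and 4.85, 4.61 and 4.76 in ovaries, near the low limit. Its differences of 0.42 to 0.63 at 14 and 16 dpc were not called, the lowest adjusted p being 0.068.

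In the pair on the X chromosome Col4a5 was lower in the testis. Col4a5 read 9.75, 9.77 and 9.76 in wild-type testes against 9.59, 10.21 and 10.36 in ovaries at 14 dpc, and 9.46, 10.06 and 10.31 in Wv/Wv testes against 11.16, 10.55 and 11.04 in ovaries at 16 dpc. The last 2 groups did not overlap, whereas the arrays of the other 3 comparisons did. The fitted differences were -0.52 ± 0.15 and -0.75 ± 0.20 in wild type and -0.82 ± 0.17 and -0.98 ± 0.15 in Wv/Wv, at 14 and 16 dpc. Col4a6 read 7.12, 7.14 and 7.02 in wild-type testes at 14 dpc beside 6.80, 7.43 and 7.30 in ovaries, and its differences of -0.66 to -0.31 were not called.

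**Figure D2:**
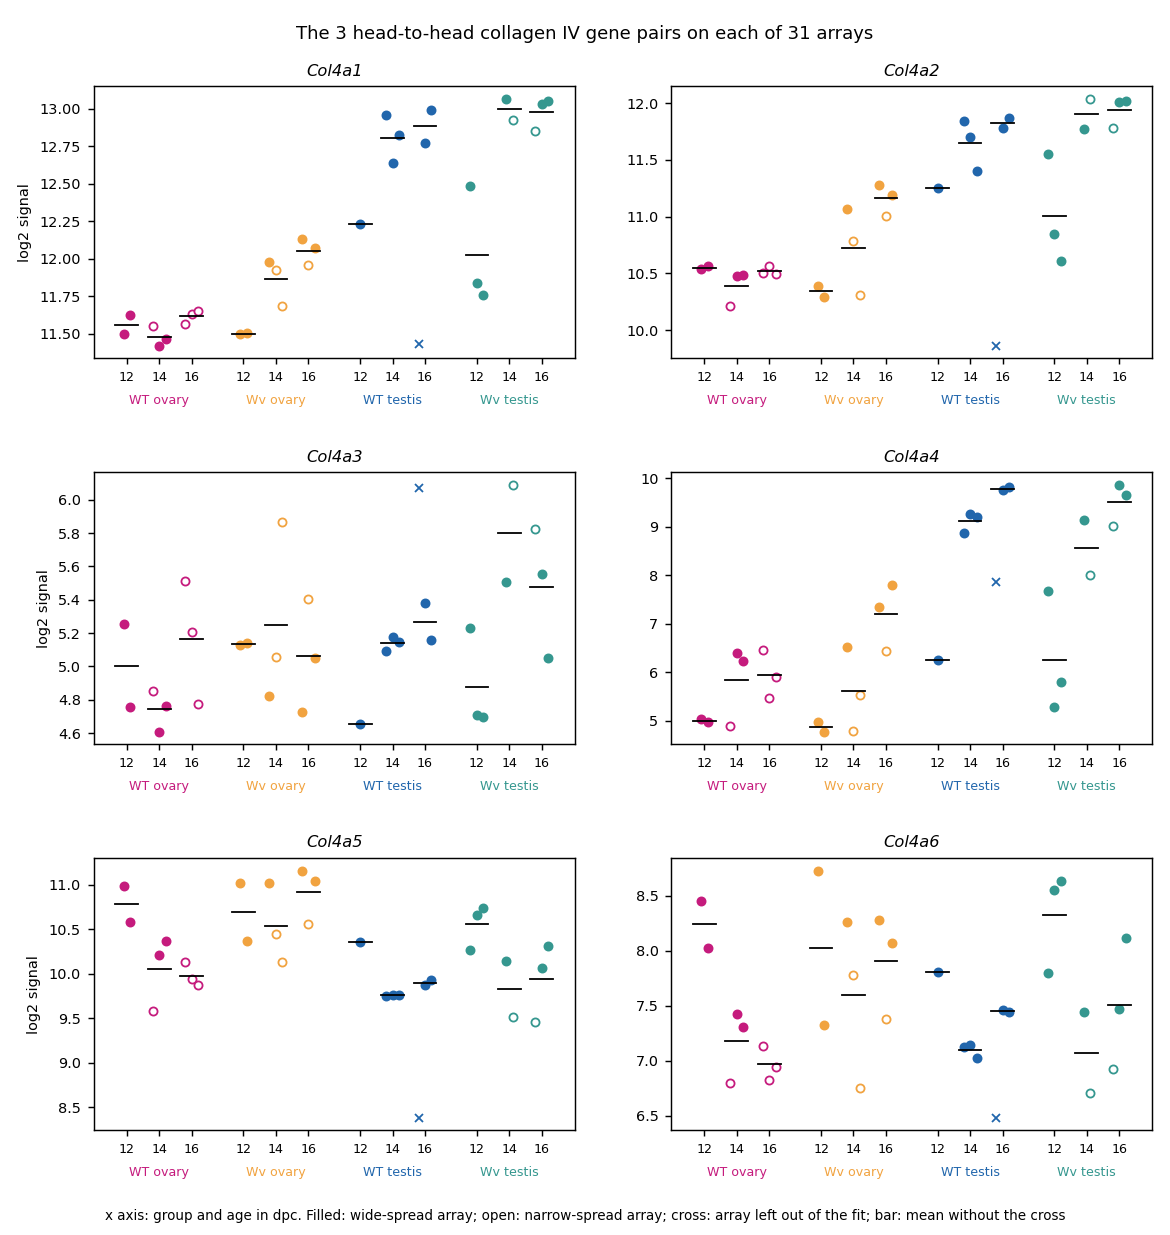
Log2 signals of the 6 collagen IV genes on each of the 31 arrays (y axis), by tissue, genotype and age (x axis). Filled points are wide-spread and open points narrow-spread arrays, the cross is the array left out of the fit, and bars are group means without it. Col4a1, Col4a2 and Col4a4 sit higher in testes at 14 and 16 dpc, with Col4a1 at 12.64 to 13.07 in the fitted testes of those ages and 11.43 on the array left out, and Col4a5 sits lower.

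The bases upstream of Col4a5 and Col4a6 and of Col6a1 and Col6a2 are shown as examples of neighbours whose group means were correlated. Col4a1 and Col4a2, whose starts span 22 bases and whose group means were correlated too, are not shown. The stretches are RefSeq sequence in build GRCm38.p6, read on each gene's strand and ending just before its annotated 5′ end, which may lie upstream of the listed start. Col4a5 is from chrX:141475169-141475369 (plus strand), Col4a6 from chrX:141474096-141474326 (minus strand), Col6a1 from chr10:76726045-76726294 (minus strand) and Col6a2 from chr10:76623631-76623880 (minus strand). None overlaps an annotated gene. Capitals mark matches on either strand. The motifs searched were CCAAT, a common promoter element, and GGGCGG, the GC box bound by SP1. Also searched were the TATA box, as TATAAA, and the core bound by SOX proteins, as ACAAT.
Col4a5: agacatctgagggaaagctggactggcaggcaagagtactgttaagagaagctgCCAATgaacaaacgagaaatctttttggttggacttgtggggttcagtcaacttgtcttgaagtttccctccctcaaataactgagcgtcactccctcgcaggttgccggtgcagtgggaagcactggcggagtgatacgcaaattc
Col4a6: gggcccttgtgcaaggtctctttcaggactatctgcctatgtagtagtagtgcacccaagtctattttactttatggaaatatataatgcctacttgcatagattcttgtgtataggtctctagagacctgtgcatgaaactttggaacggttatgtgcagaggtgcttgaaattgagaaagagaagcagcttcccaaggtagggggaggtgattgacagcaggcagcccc
Col6a1: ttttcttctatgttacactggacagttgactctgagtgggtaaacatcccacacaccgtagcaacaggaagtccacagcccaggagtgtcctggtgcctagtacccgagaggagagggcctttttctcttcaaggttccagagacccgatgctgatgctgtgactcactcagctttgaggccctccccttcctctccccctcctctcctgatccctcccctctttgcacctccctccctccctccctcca
Col6a2: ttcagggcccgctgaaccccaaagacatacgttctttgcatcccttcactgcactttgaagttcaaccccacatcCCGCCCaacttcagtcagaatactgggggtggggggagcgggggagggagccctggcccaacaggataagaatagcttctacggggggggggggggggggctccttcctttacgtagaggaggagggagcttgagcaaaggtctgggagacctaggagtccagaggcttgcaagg
The Col4a5 stretch holds CCAAT on its own strand and the Col6a2 stretch holds the GC box on the other strand. No match was found in the stretches of Col4a6 and Col6a1. Of the 52 members 38 have a window in the RefSeq table, from 250 bases before to 50 after a start, Col2a1 and Col9a3 not among them. CCAAT was found for 36.8% of these members against 41.1% of all 27025 genes in the table, the GC box for 63.2% against 38.2%, TATAAA for 13.2% against 15.7%, and ACAAT for 5.3% against 34.4%. CCAAT and ACAAT share their last 4 letters, and 1 place can match only one of them.

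Among laminins, 3 chains were higher in the testis in all 4 comparisons at 14 and 16 dpc. Lama2, the alpha chain of muscle and nerve basement membranes, read 9.27, 9.43 and 9.28 in wild-type testes against 7.32, 7.51 and 7.24 in ovaries at 14 dpc, and 10.37 and 10.45 against 7.94, 7.68 and 8.03 at 16 dpc. In Wv/Wv testes at 16 dpc it read 10.07, 10.61 and 10.55 against 8.77, 8.27 and 9.05 in ovaries. The groups were fully apart. The differences were 1.81 ± 0.22 and 2.03 ± 0.28 in wild type and 1.28 ± 0.24 and 1.71 ± 0.21 in Wv/Wv.

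Lamc3, a gamma chain, differed by 0.97 to 1.26 and Lama4, an alpha chain of vessels and mesenchyme, by 0.56 to 0.94. Lamc3 read 6.33, 5.97 and 6.10 in wild-type testes at 14 dpc and 4.87, 5.08 and 5.30, all under the low limit, in ovaries. Lamb1, the common beta chain, differed by 0.68 ± 0.13 and 1.03 ± 0.17 in wild type and by 0.67 ± 0.13 in Wv/Wv at 16 dpc. At 16 dpc it read 10.04, 10.33 and 10.38 in wild-type ovaries and 12.49 and 12.54 in the fitted testes. With all 31 arrays and the class term the 16 dpc difference in wild type was 0.20 and not called. In the other direction, Lamb2, the beta chain of mature basement membranes, was lower in testes at 14 dpc, by -0.57 ± 0.16 in wild type and -0.56 ± 0.18 in Wv/Wv, with overlapping arrays.

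At 16 dpc 3 further laminin chains were lower in Wv/Wv testes than ovaries. Lamb3, the beta chain of the epithelial laminin that also holds Lama3, read 4.64, 4.33 and 4.38 in testes and 6.60, 5.14 and 4.79 in ovaries. The difference of -1.06 ± 0.28 was -0.47 and not called without Wv/Wv ovary array 1, the only array of the 6 above the low limit. That is the array with high mesothelium markers, and it also held the highest Lama3 value, 8.43. Without it 13 members were higher and 3 lower in the testis, in place of 17 and 5. Lama3 differed by -0.73 ± 0.22 with overlapping arrays, and Lama1, an early embryonic alpha chain, by -0.72 ± 0.17.

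The multiplexins, collagens of the border between basement membrane and connective tissue, were both higher in Wv/Wv testes. Col15a1 read 8.34, 7.94 and 8.41 in wild-type testes against 7.03, 6.64 and 6.86 in ovaries at 14 dpc, and 9.15, 9.05 and 9.03 in Wv/Wv testes against 7.08, 7.52 and 7.35 at 16 dpc. No testis reached down to an ovary. Its differences were 1.38 ± 0.20 and 1.15 ± 0.26 in wild type and 1.40 ± 0.22 and 1.76 ± 0.20 in Wv/Wv. Col18a1, from which endostatin is cleaved, differed by 0.88 ± 0.21 and 0.62 ± 0.19 in Wv/Wv at 14 and 16 dpc and was not called in wild type.

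Among fibrillar chains few were called in Wv/Wv gonads. In wild type 5 of 11 were higher in the testis at 14 dpc and 2 at 16 dpc, and in Wv/Wv 0 and 1, with none called lower. These counts do not test a difference between genotypes. The sex by genotype interaction called no member at either age, and Wv/Wv testes at 14 dpc are 2 arrays. Col11a1, a minor chain that sets fibril width, read 7.76, 7.06 and 7.31 in wild-type testes against 5.99, 6.26 and 6.23 in ovaries at 14 dpc, and 7.61, 7.98 and 7.67 in Wv/Wv testes against 6.51, 6.71 and 6.53 at 16 dpc. The differences were 1.12 ± 0.34, 1.82 ± 0.43 at 16 dpc in wild type, and 1.17 ± 0.33. The first was not called without wild-type ovary array 2 or 3 or testis array 1, at 0.93 to 1.13, and the second not without testis array 3, at 1.51. Col1a2, Col3a1 and Col5a1, chains of the common connective tissue fibrils, and Col27a1 were higher by 0.52 to 0.77 in wild type at 14 dpc. Col1a1, the other chain of collagen I, was not called in any sex comparison, and its signal moved with the kind of array. It read 11.72 on the narrow-spread wild-type ovary array at 14 dpc and 9.30 and 10.14 on the wide-spread ones.

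Among FACIT chains, Col9a3 stayed higher and Col12a1 was lower in the testis. Col9a3 read 10.41, 10.13 and 9.52 in wild-type testes against 6.51, 6.56 and 6.39 in ovaries at 14 dpc, and 8.46, 8.93 and 9.22 in Wv/Wv testes against 6.09, 5.81 and 6.30 in ovaries at 16 dpc. Of 6 cartilage markers Cnmd was higher in the same testes, by 2.63 to 3.36. Hapln1 was lower at 16 dpc, at -0.72 in wild type and -0.79 in Wv/Wv, and Acan (aggrecan) was lower in Wv/Wv at 14 dpc, at -0.62. The list's part in the result was not tested. Testes and ovaries stayed far apart for Col9a3, by 3.52 ± 0.35 and 2.82 ± 0.45 in wild type and 3.73 ± 0.38 and 2.80 ± 0.34 in Wv/Wv.

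Col12a1, a FACIT of dense connective tissue, read 5.41, 5.47 and 5.95 in wild-type testes against 7.51, 7.47 and 8.20 in ovaries at 14 dpc, and 6.07, 6.43 and 7.58 in Wv/Wv testes against 9.49, 8.12 and 9.22 in ovaries at 16 dpc. Ovaries were above testes in each comparison. The differences were -2.38 ± 0.34 and -1.43 ± 0.43 in wild type and -2.41 ± 0.37 and -2.25 ± 0.33 in Wv/Wv. Its 3 other probe sets differed by -0.90 to 0.11, and the mean of all its probe sets by -0.96 to -0.43. The call at 16 dpc in wild type was lost with that mean, without the class term (-0.88) and without wild-type ovary array 3 or testis array 2 or 3 (-1.46 to -1.39). Col14a1, a FACIT of tendon and skin, was higher by 1.27 ± 0.30 in wild type at 14 dpc and 0.95 ± 0.29 in Wv/Wv at 16 dpc.

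Of the 4 transmembrane collagens, whose chains stay anchored in the cell membrane, Col13a1, Col23a1 and Col25a1 were higher in the testis in all 4 comparisons. Col13a1 read 9.15, 9.16 and 8.86 in wild-type testes against 6.42, 7.26 and 6.92 in ovaries at 14 dpc, a difference of 1.92 ± 0.19 (adjusted p = 1.2e-07). It differed by 1.70 ± 0.25 at 16 dpc and by 1.61 ± 0.21 and 1.16 ± 0.19 in Wv/Wv. Col25a1 read 9.11, 8.59 and 8.86 against 5.19, 6.14 and 6.47 in wild type at 14 dpc, a difference of 2.54 ± 0.44, and differed by 1.38 to 2.48 in the other 3. Its other probe set differed by only 0.11 to 0.32, and in Wv/Wv at 16 dpc the call was lost with any 1 array left out, at 1.26 to 1.43. Col17a1, a collagen of epithelial hemidesmosomes, was called at 16 dpc in both genotypes, at 0.86 and 0.81, with every group mean under the low limit.

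**Figure D3:**
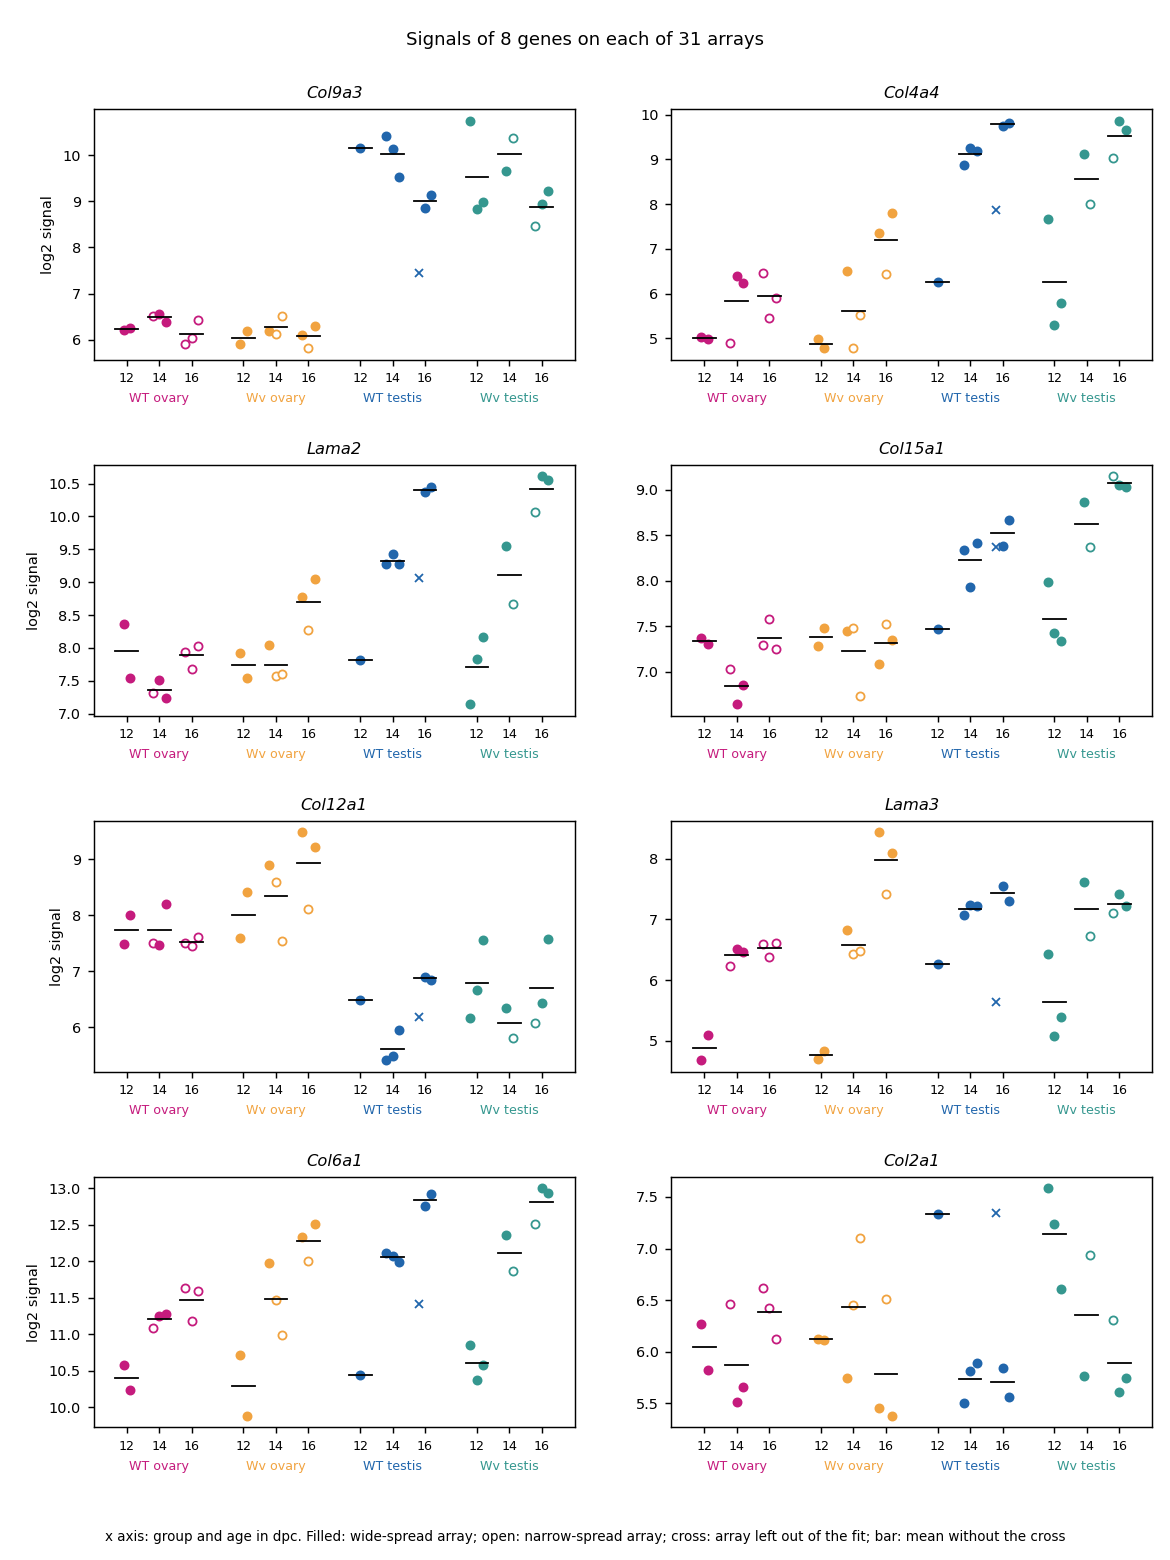
Log2 signals of 8 members on each of the 31 arrays (y axis), by tissue, genotype and age (x axis). Points, cross and bars are as in the plot of the collagen IV pairs. Col9a3 separates testes from ovaries at all 3 ages, with 6.56 its highest ovary value. Lama2, Col4a4 and Col15a1 separate them from 14 dpc, Col12a1 lies lower in testes, and Col6a1 and Lama3 climb with age.

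Collagen VI showed small sex differences and large differences with age. In wild type Col6a1, Col6a2 and Col6a3 were higher in testes at 14 dpc, by 0.57 to 0.70, and Col6a1 at 16 dpc, by 0.91. In Wv/Wv Col6a1 alone was called, by 0.53 at 16 dpc.

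Between 12 and 16 dpc more members rose than fell in each of the 4 tissues. In wild-type ovaries 7 members were higher at 16 dpc and 2 lower, where 7.04% of all genes were higher and 4.7% lower. In wild-type testes the counts were 16 and 3, against 4.19% and 2.55%. In Wv/Wv ovaries they were 20 and 1 (10.1% and 6.87%), and in Wv/Wv testes 23 and 3 (8.78% and 8.49%). Without the class term on all 31 arrays 3, 3, 8 and 15 members were called in the 4 tissues, in that order. The wild-type testes at 12 dpc are 1 array, and without either of the fitted 16 dpc arrays the count was 9 in place of 19. Without Wv/Wv ovary 12 dpc array 2, 13 were called in place of 21. In all 4 tissues 5 members rose, Col6a1, Col6a2, Col4a4, Lama3 and Col8a2, and 0 fell. The share of all genes that rose or fell in all 4 was not set beside this.

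Col6a1 and Col6a2, 2 of the chains that together form the collagen VI monomer, are neighbours on chromosome 10 and are transcribed in one direction. Over the 12 group means Pearson's r between them was 0.997. Col6a1 read 10.58 and 10.24 in wild-type ovaries at 12 dpc and 11.64, 11.18 and 11.59 at 16 dpc, and 10.45 in the wild-type testis at 12 dpc beside 12.76 and 12.93 at 16 dpc. In Wv/Wv it read 10.71 and 9.88 against 12.34, 12.00 and 12.50 in ovaries, and 10.86, 10.37 and 10.58 against 12.50, 13.00 and 12.94 in testes. No 16 dpc array in the fit reached down to a 12 dpc one. The rises were 1.52 ± 0.24 and 2.14 ± 0.21 in ovaries and 2.40 ± 0.27 and 2.37 ± 0.18 in testes, wild type first.

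Col6a2 rose by 1.67 ± 0.22 in wild-type and 2.08 ± 0.19 in Wv/Wv ovaries, and by 2.253 ± 0.25 and 2.24 ± 0.17 in the testes. Its other probe set rose by 1.77 to 2.47. Without the class term on all 31 arrays both genes fell short of the threshold in wild-type ovaries, at 1.06 each, as did Col6a2 in wild-type testes, at 1.70. Col6a3, the third chain, rose by 0.99, 1.54 and 0.83 in wild-type ovaries, Wv/Wv ovaries and Wv/Wv testes, with overlapping arrays in the first and last. Col6a4, a chain that can replace it, rose by 0.89 in Wv/Wv ovaries and by 1.38 and 1.24 in testes, but its other probe set moved by 0.04 and 0.18 in the testes.

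Among basement membrane chains the largest rises with age were in Col4a4, Lama3 and Lama2. Col4a4 read 5.03 and 4.97 in wild-type ovaries at 12 dpc, 4.98 and 4.77 in Wv/Wv ovaries, 6.25 in the wild-type testis and 7.67, 5.29 and 5.80 in Wv/Wv testes. The ovaries at 12 dpc were all under the low limit, and the 16 dpc values given above were higher in each tissue. The rises were 2.09 ± 0.48 and 2.71 ± 0.42 in ovaries and 3.54 ± 0.55 and 3.65 ± 0.38 in testes. In wild-type ovaries the rise was 0.93 and not called without the class term.

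Lama3, an alpha chain of epithelial basement membranes, read 4.68 and 5.09 in wild-type ovaries at 12 dpc and 6.59, 6.38 and 6.60 at 16 dpc. In Wv/Wv ovaries it read 4.69 and 4.84, then 8.43, 7.41 and 8.10. In the wild-type testis it read 6.26, then 7.55 and 7.31, and in Wv/Wv testes 6.43, 5.08 and 5.39, then 7.11, 7.42 and 7.22. All 16 dpc arrays in the fit were above all 12 dpc arrays of their tissue. The rises were 2.14 ± 0.29 and 3.38 ± 0.26 in ovaries and 1.16 ± 0.34 and 1.79 ± 0.23 in testes. The other probe set of Lama3 moved by -0.16 to 0.02, and with the mean of both the rise in wild-type testes was 0.52 and not called.

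Lama2 rose by 2.59 ± 0.32 in wild-type and 2.86 ± 0.22 in Wv/Wv testes. It read 7.82 in the wild-type testis and 7.14, 7.83 and 8.16 in Wv/Wv testes at 12 dpc, under every 16 dpc testis. In Wv/Wv ovaries it rose by 1.13 ± 0.24, a call lost at 0.93 without Wv/Wv ovary 12 dpc array 2, and in wild-type ovaries it was not called. Col15a1 rose in both testes, by 1.05 ± 0.30 and 1.49 ± 0.20. Col4a1 and Col4a2 rose in Wv/Wv ovaries, by 0.59 ± 0.16 and 0.89 ± 0.20, and in Wv/Wv testes, by 0.99 ± 0.14 and 1.01 ± 0.18. Their wild-type changes of 0.16 to 0.65 were not called.

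Other chains rose in some tissues. Col25a1 rose by 1.97 ± 0.49 in Wv/Wv ovaries and by 3.30 ± 0.64 and 2.92 ± 0.44 in testes, while its other probe set moved by -0.10 to 0.16. Col8a2, a short-chain collagen of endothelial and corneal membranes, rose by 1.14 to 1.63 in all 4 tissues, and the lowest of these, in wild-type ovaries, was lost under several settings, with 0.77 the smallest value. Of the chains of fibrils, Col5a1, Col5a2 and Col1a2 rose in both testes, by 0.87 to 1.15, and Col16a1, a FACIT, by 1.14 and 1.21. In Wv/Wv gonads Col1a1 rose by 1.04 in ovaries and 1.46 in testes, where its other probe set rose by 1.07 and 1.87.

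In testes 3 members fell with age, Col2a1, Col9a1 and Col18a1. Col2a1 fell from 7.33 to 5.84 and 5.56 in wild-type testes, and from 7.59, 7.23 and 6.61 to 6.31, 5.61 and 5.74 in Wv/Wv testes. The changes were -1.63 ± 0.30 and -1.57 ± 0.21, and without the class term on all 31 arrays they were -1.08 and -1.25 and not called. Col9a1 fell by 0.99 in wild-type and by 1.29 in Wv/Wv testes, and in the latter its other probe set changed by -4.62. Col18a1 changed by -0.99 and -0.69. Hapln1 of the cartilage markers changed by -3.01 and -2.30, and Cnmd, another, by 2.57 and 2.79, so that the list as a whole had 1 member higher and 1 lower in each. In ovaries Col11a1 fell, from 8.49 and 7.13 to 6.01, 5.49 and 5.64 in wild type and from 8.42 and 7.85 to 6.51, 6.71 and 6.53 in Wv/Wv. Those changes of -1.83 ± 0.43 and -1.46 ± 0.37 were not called without ovary 12 dpc array 1 of either genotype, at -1.15 and -1.18. Those same arrays had the higher mean of 4 mesonephros and tubule markers, 8.49 against 7.29 in wild type and 8.74 against 8.16 in Wv/Wv. With age 2 of these markers fell in Wv/Wv ovaries, Cdh16 (a kidney tubule cadherin) at -2.997 and Lhx1 at -1.18. In wild-type ovaries Cdh16 differed by -2.17, which limma did not call (adjusted p = 0.097). Their part in the result was not tested.

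The sexes differed in their change with age for 8 members in Wv/Wv gonads, with 5 higher and 3 lower in the testis relative to the ovary, where 2.87% and 3.78% of all genes were called. Relative to the ovary, Lama2, Col15a1, Col17a1, Lamc3 and Lamb1 increased more in the testis, and Lama3, Col9a1 and Col4a5 less. In the same comparison 4 of 5 smooth muscle, 3 of 5 stroma and 3 of 4 Leydig cell markers were higher. Lower were 4 of 6 pregranulosa markers (median -1.73), 1 of 4 mesothelium markers and 1 of 4 mesonephros markers, Emx2 at -1.37. The part of these cell types was not tested. Without the class term on all 31 arrays 1 member (Col15a1) was called, and without Wv/Wv testis 16 dpc array 1 there were 5.

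Between genotypes, members were called in ovaries at 14 and 16 dpc, all of them higher in Wv/Wv. At 12 dpc 0 of 52 members were called in Wv/Wv ovaries against wild type, where 0% of all genes were higher and 0.187% lower, and 0 had an unadjusted p below 0.05 in limma. At 14 dpc 12 were higher and 0 lower, against 5.88% and 14.7% of all genes, with 1 lower at an unadjusted p below 0.05. At 16 dpc 9 were higher and 0 lower (7.56% and 8.95%), with 0 lower at an unadjusted p below 0.05. Median log2 changes of the members were 0.35 and 0.37, while those of all genes were 0.02 and 0.05. In testes 0 members were called at any age. The background was 0% higher and 0.121% lower at 12 dpc, 0.0165% and 0.929% at 14 dpc and 0.0055% and 0.989% at 16 dpc, and 0, 3 and 1 members had an unadjusted p below 0.05. For the sex by genotype interaction 0 members were called at 14 dpc (1.75% and 0.176% of all genes) and 0 at 16 dpc (2.32% and 0.539%), with 3 and 4 at an unadjusted p below 0.05.

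The members higher in Wv/Wv ovaries at 14 dpc came from several chain classes. They were 3 fibrillar chains (Col1a1, Col5a1 and Col5a2), 3 FACIT chains (Col14a1, Col16a1 and Col19a1), 3 basement membrane chains (Col4a1, Col4a5 and Lamc1, the common gamma chain), Col6a2, Col6a3 and Col8a2. Changes ran from 0.42 to 0.94, and the arrays of 7 of the 12 overlapped between genotypes. That overlap was not set against its share over all called genes. Col4a1 read 11.98, 11.93 and 11.69 in Wv/Wv and 11.55, 11.42 and 11.46 in wild-type ovaries, without overlap, a difference of 0.42 ± 0.14. The count was 0 without the class term on all 31 arrays, 6 with it on all 31, 6 on wide-spread arrays alone and 21 after quantile normalization. It was 4 without wild-type ovary array 2, and 3, 6 and 22 without Wv/Wv ovary arrays 1, 2 and 3. Wv/Wv ovary array 1 had the highest signals of its group for the germ cell markers Dazl and Ddx4, 7.54 and 6.46. The part of that in the counts was not tested.

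At 16 dpc the 9 members higher in Wv/Wv ovaries were Col8a2, Lama3, Col5a2, Col13a1, Lamc1, Col6a3, Col4a5, Lamb1 and Col22a1. Col8a2 read 8.64, 8.79 and 8.86 in Wv/Wv and 8.09, 7.20 and 8.03 in wild-type ovaries, a difference of 1.18 ± 0.30. It was not called without wild-type ovary array 2, at 0.89. Lama3, with the values given above, differed by 1.13 ± 0.25 (adjusted p = 0.0031), and its other probe set by 0.16. All wild-type ovaries at this age were narrow-spread and 2 of 3 Wv/Wv ovaries wide-spread, so kind of array and genotype are largely joined. The count was 1 without the class term, 2 with it on all 31 arrays and 2 when centred on housekeeping genes. It was 3 without wild-type ovary array 2, and 5 and 3 without Wv/Wv ovary arrays 1 and 2. In these ovaries erythroid markers moved too, 3 of 4 being lower in Wv/Wv at 14 and at 16 dpc, with medians of -2.35 and -2.84, and germ cell markers were lower, 7 and 5 of 7. Higher in Wv/Wv were 2 of 4 mesonephros markers at 14 dpc (Pax8 by 1.48 and Emx2 by 0.39), 1 and 2 of 5 stroma markers (Pdgfra at both ages, by 0.51 and 0.56), and 1 of 6 pregranulosa markers at each age. Of the 4 mesothelium markers limma called 0, with 1 and 2 at an unadjusted p below 0.05 and medians of 0.57 and 0.76. Without Wv/Wv ovary array 1, which stood apart in those markers, Lama3 at 16 dpc differed by 1.007 and Col8a2 by 1.19, both still called. The part of these cell types was not tested.

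Basement membrane and fibrillar chains were set side by side over these comparisons. In wild type at 14 dpc 8 of 19 basement membrane chains were higher in the testis and 2 lower, and 5 of 11 fibrillar chains were higher, with medians of 0.56 and 0.49. At 16 dpc the counts were 8 and 1 against 2 and 0, with medians of 0.41 and 0.49. In Wv/Wv gonads they were 8 and 2 against 0 and 0 at 14 dpc, with medians of 0.50 and 0.12, and 9 and 4 against 1 and 0 at 16 dpc, with medians of 0.42 and 0.24. At 12 dpc 2 fibrillar chains and 0 basement membrane chains were called in Wv/Wv gonads, too few to order the classes. The call of Col2a1, 1 of these 2, was lost on all arrays without the class term and after quantile normalization. The wild-type testis at 12 dpc is 1 array, so wild-type calls of that age are not set side by side here. With age 3 of 19 basement membrane and 0 of 11 fibrillar chains rose in wild-type ovaries, 5 and 3 in wild-type testes, 7 and 4 in Wv/Wv ovaries and 9 and 5 in Wv/Wv testes. In Wv/Wv ovaries against wild type 3 and 3 were higher at 14 dpc and 4 and 1 at 16 dpc. The difference between the classes was not tested. The share of all genes called in each comparison is given above, and the class counts were not set against it. Over the 14 basement membrane and 8 fibrillar chains above the low limit in every group, the sex medians at 14 dpc were 0.29 and 0.52 in wild type and 0.18 and 0.21 in Wv/Wv. There the fibrillar median was the higher one.

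**Figure D4:**
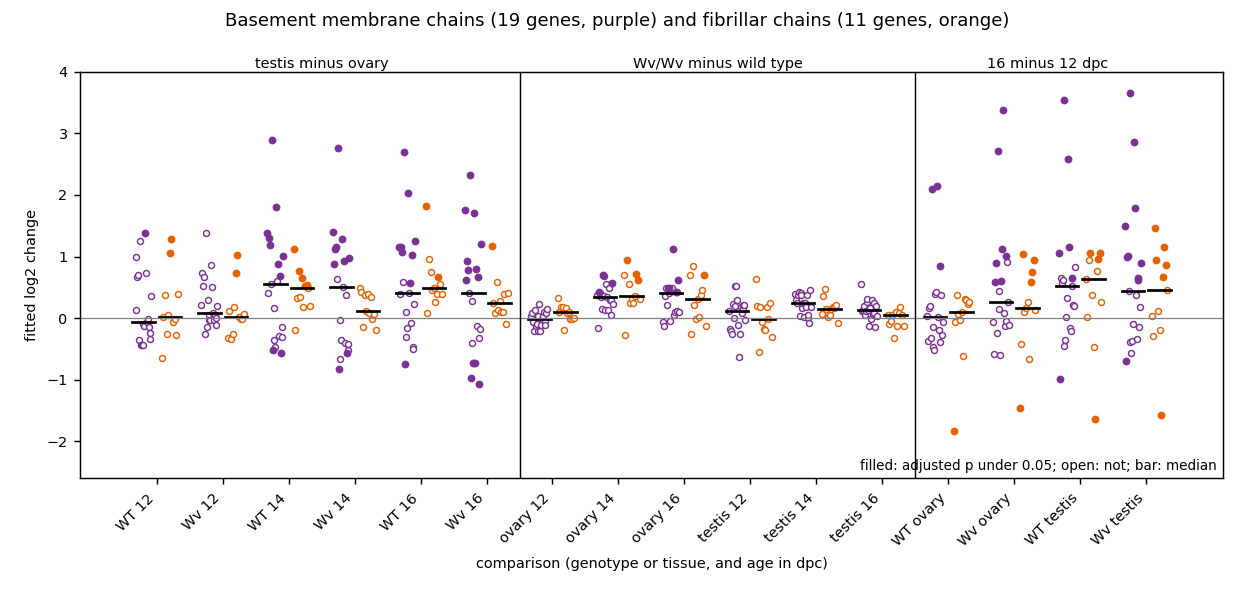
Fitted log2 change (y axis) of each of 19 basement membrane chains (purple) and 11 fibrillar chains (orange) in 16 comparisons (x axis). Filled points have an adjusted p below 0.05 and bars are medians. In the sex comparisons at 14 and 16 dpc basement membrane chains spread in both directions, up to 2.89, and in the age comparisons up to 3.65.

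Genes that process, cross-link, bind or receive signals from these chains were read from a list of 65 measured genes. In wild type 24.6% were higher and 7.69% lower in the testis at 14 dpc (16 and 5 genes), where 7.76% and 10.2% of all genes were, and 18.5% and 6.15% at 16 dpc (12 and 4), against 7.98% and 8.11%. In Wv/Wv the shares were 10.8% and 6.15% at 14 dpc (7 and 4), against 9.6% and 5.14%, and 9.23% and 15.4% at 16 dpc (6 and 10), against 10.4% and 10.1%. The Wv/Wv shares of higher partners were near those of all genes. At 12 dpc 1 and 3 were higher in wild type and Wv/Wv (1.54% and 4.62%, against 0.929% and 1.4%) and 0 lower. On all 31 arrays without the class term 4 and 5 were higher and 2 and 1 lower in wild type at 14 and 16 dpc, and 1 and 3 higher and 1 and 6 lower in Wv/Wv. Smoc2, a calcium-binding matricellular protein, had the largest differences, 4.09 and 3.54 in wild type and 3.12 and 3.46 in Wv/Wv at 14 and 16 dpc. Thbs2, a thrombospondin that binds matrix and cells, was lower in testes, at -2.47, -1.39, -1.83 and -1.64. Npnt (nephronectin, an integrin ligand) differed by -2.34 in wild type at 14 dpc and by -1.61 and -1.44 in Wv/Wv. Ntn4, a netrin that binds laminin, differed by -1.45 and -1.68 at 16 dpc. The calls of Smoc2 and Thbs2 held in these 4 comparisons without the class term, while those of Npnt, and of Ntn4 in wild type (-0.85), were lost.

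With age 5 of 12 fibril partners rose in each wild-type tissue, 6 in Wv/Wv ovaries and 7 in Wv/Wv testes, with 0 lower. Eln (elastin) rose by 2.63, 2.97, 3.43 and 3.47 in the order wild-type ovary, wild-type testis, Wv/Wv ovary and Wv/Wv testis, and Thbs2 by 3.01, 1.72, 3.54 and 2.04. Lox, the enzyme that starts collagen cross-links, rose by 2.04 in Wv/Wv ovaries and 2.504 in Wv/Wv testes. Lox also rose by 1.501 in wild-type ovaries and 2.14 in wild-type testes. Without the class term and with the left-out testis array back in, these rises were 0.76 and 1.72 and not called. Over all 65 partners 12.3%, 13.8%, 26.2% and 30.8% rose in wild-type ovaries and testes and then Wv/Wv ovaries and testes, against 7.04%, 4.19%, 10.1% and 8.78% of all genes. These were 8, 9, 17 and 20 genes, and 3, 2, 9 and 7 without the class term. In Wv/Wv ovaries against wild type 12 partners (18.5%) were higher at 14 and at 16 dpc, against 5.88% and 7.56% of all genes, and 1 and 0 lower. The counts were 0 and 3 without the class term. Lox at 14 dpc (0.97) and Loxl1, a related enzyme, at 16 dpc (0.77) were among those lost, at 0.73 and 0.63. Pcolce2, which speeds the trimming of procollagen, was the one lower, at -1.73. In testes 0 partners were called between genotypes at any age.

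Markers of the cells that could supply these chains moved with sex and age as well. Smooth muscle and peritubular markers had mean log2 signals of 8.24 to 8.33 in wild-type testes at 14 dpc against 7.12 to 7.43 in ovaries, and in Wv/Wv at 16 dpc of 9.02 to 9.25 against 7.72 to 7.87, with 5 of 5 higher in testes at 16 dpc in both genotypes and 5 of 5 rising with age in both testes. All 5 interstitial stroma markers were higher in testes at 14 dpc in both genotypes, and all 4 Leydig cell markers were higher at 14 and 16 dpc. Of 8 endothelial markers 1 or 2 were higher in testes at those ages, with medians no higher than 0.19. The 6 pregranulosa markers, all lower in testes at 14 and 16 dpc, moved the other way, as did 2 of 4 mesonephros and tubule markers at both ages in both genotypes (1 other being higher in wild type at 14 dpc) and 1 or 2 of 4 mesothelium markers. The part of these cell types in the matrix results was not tested.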

How the data were processed

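RNA of 31 whole fetal mouse gonads was hybridised to Affymetrix 3′ expression arrays, 1 sample per array. The authors deposited a log2 signal for each of 45101 probe sets, and RMA is the method named in the submitters' processing notes. It normalises between arrays, so a shift of RNA content over all genes cannot be seen. Precision is limited by how many arrays there are. Probe sets with 1 symbol (34958) gave 18194 genes, each read from its probe set of highest mean. The tests are those of limma (version 3.58.1, R 4.3.3) on 30 arrays, with 12 group means and the array class (narrow below an SD of 2.25) as terms. Wild-type testes at 12 dpc have 1 array, assumed to vary as other groups do. P-values of the 19 comparisons were each adjusted over 18194 genes and called at an adjusted p below 0.05. The script was tested on simulated data. Members and gene lists were chosen with earlier results of these data known. All members may be named; array values are given for up to 8 called members per comparison changed by at least 1, and for the collagen IV pairs. Partner genes are named for their largest called changes, and marker genes up to 2 per list. Alternatives tried were the class term, the left-out array, normalization, the low-signal filter, the probe set rule, wide-spread arrays alone, the replicate block and leaving out each array. Promoters and coordinates come from RefSeq tables of build GRCm38.p6. Tables and plots used Python 3.11.15, pandas 2.3.3, numpy 2.4.6 and matplotlib 3.10.9. The 27 pairs of arrays within groups differed by an SD of at least 0.179, and none was taken for a duplicate.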

Additional observations from a re-analysis of the deposited data

Results flagged for a closer look

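In Wv/Wv gonads the change from 12 to 16 dpc was compared between testes and ovaries with limma's interaction term, and 8 members differed at an adjusted p below 0.05. The difference (testis change minus ovary change, log2) was 1.74 for Lama2, 1.55 for Col15a1, 1.16 for Col17a1, 1.01 for Lamc3 and 0.70 for Lamb1. It was -1.60 for Lama3, -1.19 for Col9a1 and -0.84 for Col4a5. Col17a1 was under the low limit in every group. For Lama3 the other probe set gave 0.08 and for Col9a1 it gave -3.04. Without the class term on all 31 arrays none of the calls for Lama2, Lama3, Col9a1, Col17a1 and Lamc3 passed, at unchanged sizes, and Lamc3 was also lost without any of several single arrays, at 0.82 to 1.00.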

How the results depend on the processing

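Of the 114 changes of at least 1 that were called, 0 were reversed under any setting. They were chosen by size and call, so a reversal was unlikely from the start. Without the class term on all 31 arrays 65 of them were rated the same and 49 weaker. Another probe set was read for 66, and in 55 of these all probe sets had the same direction. Counts of called members that moved by over 1.5 times are given here, with the count of the fit used above first. Without the class term on all 31 arrays, testis against ovary went from 4, 25 and 19 to 1, 11 and 10 in wild type and from 5, 17 and 22 to 2, 9 and 9 in Wv/Wv, at 12, 14 and 16 dpc. Genotype in ovaries went from 12 and 9 to 0 and 1 at 14 and 16 dpc, age from 9, 19, 21 and 26 to 3, 3, 8 and 15 in the ovaries, then testes, of wild type and then of Wv/Wv, and sex by age from 8 to 1. With the class term on all 31 arrays, sex went to 2 and 16 in wild type at 12 and 14 dpc and 3 in Wv/Wv at 12 dpc, genotype in ovaries to 6 and 2, age in wild-type testes to 9, and sex by age to 4. Quantile normalization gave 21 for genotype in ovaries at 14 dpc. Wide-spread arrays alone gave 6 there and 10 for sex in Wv/Wv at 14 dpc. Centring on housekeeping genes gave 2 for sex in wild type at 12 dpc and 2 for genotype in ovaries at 16 dpc, and it shifted the median of all genes by up to 0.26, in the age change of wild-type testes. The mean of all probe sets gave 1 in place of 0 for genotype in testes at 16 dpc. Leaving out low genes moved no count that far. The cause of these moves was not tested.

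Leaving out each array in turn gave 1 to 4, 17 to 24 and 14 to 21 members for sex in wild type, 1 to 8, 13 to 18 and 16 to 19 in Wv/Wv, 3 to 22 (14 dpc) and 3 to 7 (16 dpc) for the genotypes of ovaries, and 0 to 1 in testes at 12 dpc. Age gave 7 to 10 and 9 to 9 in wild-type ovaries and testes and 13 to 20 and 25 to 27 in Wv/Wv. The interactions gave 0 to 2 and 0 to 1 for sex by genotype and 5 to 9 for sex by age. Without wild-type ovary 16 dpc array 2 sex by genotype at 16 dpc gave 1, without Wv/Wv ovary 14 dpc array 3 it gave 2 at 14 dpc, and without Wv/Wv testis 12 dpc array 1 genotype in testes at 12 dpc gave 1. Wide-spread arrays alone could not be fitted where wild-type ovaries at 16 dpc enter.

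The labels do not say that the replicate numbers pair the samples. In no comparison with 3 pairs were all correlations of same-numbered deviations over 0.1. With 2 pairs they were 0.461 for genotype in ovaries at 12 dpc, where 2 arrays per group give both pairs the same value. They were 0.177 and 0.148 for age in wild-type ovaries. The other comparisons with 2 pairs gave -0.401 to 0.035. Pairing of the 12 dpc ovaries was not tested further. With the replicate number as a block, sex in wild type at 12 dpc gave 2 in place of 4, and no other count moved by over 1.5 times.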
